A study of Mus musculus with 8 samples.

Results

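The genes of intraflagellar transport (IFT), the train complexes and motors that build and maintain cilia, were followed in the retinal pigment epithelium (RPE) of mice that lack *Bbs8*. The members are 32 genes chosen by name from a list of known train and motor subunits, out of 31053 Ensembl gene identifiers in the deposited tables, and all 32 were matched to an identifier. They comprise 11 genes of the IFT-B1 core, 6 of the IFT-B2 peripheral subcomplex, 6 of IFT-A, 4 of the kinesin-II motors and 5 of the dynein-II motor. Of these, 31 passed the filter on low counts (at least 1 CPM, that is 1 count per 1000000 after scaling, in at least 4 of the 8 libraries) and were tested. *Kif17* did not pass.

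RNA of isolated RPE was sequenced at postnatal day 29 (P29) from 4 *Bbs8* knockout mice (KO) and 4 wild type mice (WT), with 1 library per mouse. All animals were of the strain given as C57/Bl6, no treatment was performed, gender was not determined, and the WT mice were littermate controls. The knockout is not restricted to the RPE, so every cell type of the KO eye lacks *Bbs8*, photoreceptors included. The RPE was detached from the eyecup with trypsin after the retina and lens had been removed, and QuantSeq libraries, which hold reads from the 3′ ends of polyadenylated transcripts, were made from 30 ng of total RNA. Between 2389835 and 3093428 reads were counted on genes per library, of which 3160 to 4003 fell on the 32 members. The floor was set at 3 counts, which is 1.02 to 1.23 CPM depending on the library, and allows for counting error alone.

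In the cilium, IFT-B trains are pulled towards the tip by kinesin-II, and IFT-A trains together with dynein-II bring material back to the base. The BBSome, of which BBS8 (gene *Ttc8*) is a subunit, rides on these trains as an adaptor for membrane cargo. RPE cells carry a primary cilium, while the photoreceptors that face them carry a modified cilium whose tip is the outer segment, and both cell types use the same trains. Transcription of many ciliary genes is governed by RFX factors, which bind a DNA motif called the X-box.

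The knockout label was checked first on the targeted gene. *Ttc8* had 105, 142, 144 and 116 counts in the WT libraries and 15, 5, 14 and 15 in the KO libraries, that is 47.6 ± 10.3 against 4.70 ± 1.97 CPM (SD, n = 4 for every mean given). The difference was -3.34 on the log2 scale (SE 0.29, adjusted p = 2.48e-11), and it lay between -3.49 and -3.06 when any 1 library was left out. The marker genes of RPE summed to 39584 to 40629 CPM in WT and 47899 to 51766 CPM in KO over 12 genes, of which 3 were lower and 3 higher, with a median log2 fold change of -0.04. *Ttr* carried the higher KO sum: the other 11 genes summed to 19008 to 19521 CPM in WT and 17889 to 18550 CPM in KO, and overlapped between genotypes with library size scaling. *Best1* stood near the floor at 1.06 CPM in WT. Rod photoreceptor genes were also abundant and changed more: 19 of them summed to 63222 to 67968 CPM in WT and 26539 to 27144 CPM in KO, a ratio of 0.411, and 18 of 19 were lower. Among the other marker lists the ratio of KO to WT was 0.138 for lens (led by *Crygb*), 0.395 for erythrocytes (*Hbb-bs*), 0.845 for microglia (*Csf1r*), 1.67 for cones (*Opn1sw*) and 1.41 for Müller glia (*Clu*), each with no overlap between genotypes (exact permutation test, two-sided, p = 0.0286 for each of these and for rods and RPE, the smallest that 4 against 4 libraries allow, 0.0449 after adjustment over the 11 lists). With library size scaling the microglia sums overlapped (ratio 0.900, exact permutation p = 0.229) and the adjusted p of the other 6 lists was 0.0524. Of the 5 microglia genes tested, none was called lower. *Csf1r* made up 318 of the mean microglia sum of 358 CPM in WT and 263 of 303 CPM in KO. *Clu* made up 4626 of the mean Müller glia sum of 5951 CPM in WT and 6530 of 8366 CPM in KO. *Glul* made up 1199 and 1709 CPM of these sums. Of the 6 Müller glia genes, 3 were called higher and 0 lower, and *Vim*, the next most abundant, was not called (-0.18). The lists of bipolar and amacrine cells (*Slc6a9*, 1.03), motile cilia (*Ccdc39*, 0.940), endothelium (*Kdr*, 1.19) and fibroblasts (*Dcn*, 0.862) overlapped between genotypes. *Slc6a9* made up 381 of the mean bipolar and amacrine sum of 405 CPM in WT and 389 of 417 CPM in KO. In bulk RNA, fewer cells of a type and less RNA per cell cannot be told apart. WT replicate 1 stood apart from the other WT libraries, with a chi-square per degree of freedom of 5.76 to 7.04 against them, compared with 2.83 to 3.32 among the other 3. KO replicate 1 was the KO library farthest from the rest on the second principal component. Reads on no feature made up 17.0% to 18.4% of the WT libraries and 19.8% to 20.6% of the KO libraries, and 14115 to 14496 genes were detected in WT against 13657 to 14084 in KO. Both measures separated the genotypes, and their part in the members' differences was not tested.

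The promoters of the members were read first for the X-box, since *Ift57* and an RFX factor are among the genes called higher below. RefSeq promoter windows on GRCm38.p6, from 250 bases before to 50 bases after the annotated start, were found for 27 of the 32 members. *Ift80*, *Ift81*, *Ift122*, *Dync2li1* and *Ttc30b* had no entry. Each window was searched on both strands for GTNNCC and GGNAAC separated by 0 to 3 bases, the letters of the X-box. It was also searched for the single arm GGNAAC, which by the pattern lies inside every such match. The paired motif as searched is a narrow form of the X-box. Sites with other letters in either arm were not counted, so every share given here is for this pattern alone. The paired motif was present in 3 of 27 member promoters (11.1%), those of *Ift57*, *Ift22* and *Ttc26*. In the whole table it was present in 770 of the 32851 promoters (2.34%). It was present at 2 separate places in the promoters of *Ift57* and *Ift22* and in 26 promoters of the table (0.0791%). The single arm was found in 22 of 27 member promoters (81.5%) and in 45.3% of all. A match describes letters in this window and is not evidence that a factor binds there.

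The 3 promoters with the paired motif are shown because they include that of the 1 member that rose. The *Ift57* window lies at chr16:49699044-49699343 on the plus strand, with matches centred 80 and 54 bases before the start. The *Ift22* window lies at chr5:136907900-136908199 on the plus strand, with matches centred 56 and 26 bases before the start. The *Ttc26* window lies at chr6:38381274-38381573 on the plus strand, with 1 match centred 26 bases before the start. These distances are from the RefSeq start. In the GENCODE annotation *Ift57* and *Ttc26* start farther upstream, at chr16:49699233 and chr6:38381469. Capitals mark the paired X-box letters.
Ift57: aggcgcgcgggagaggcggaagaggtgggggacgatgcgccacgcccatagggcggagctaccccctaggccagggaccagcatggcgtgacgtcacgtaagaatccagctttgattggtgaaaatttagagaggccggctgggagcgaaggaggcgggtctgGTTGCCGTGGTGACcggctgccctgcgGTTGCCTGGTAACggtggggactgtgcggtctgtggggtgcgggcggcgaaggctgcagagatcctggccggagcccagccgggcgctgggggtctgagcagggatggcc
Ift22: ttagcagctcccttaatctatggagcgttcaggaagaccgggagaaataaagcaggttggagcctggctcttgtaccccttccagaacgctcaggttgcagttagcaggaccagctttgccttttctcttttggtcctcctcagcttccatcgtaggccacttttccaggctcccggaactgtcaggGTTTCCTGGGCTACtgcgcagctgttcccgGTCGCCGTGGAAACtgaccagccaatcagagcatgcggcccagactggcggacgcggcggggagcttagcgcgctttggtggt
Ttc26: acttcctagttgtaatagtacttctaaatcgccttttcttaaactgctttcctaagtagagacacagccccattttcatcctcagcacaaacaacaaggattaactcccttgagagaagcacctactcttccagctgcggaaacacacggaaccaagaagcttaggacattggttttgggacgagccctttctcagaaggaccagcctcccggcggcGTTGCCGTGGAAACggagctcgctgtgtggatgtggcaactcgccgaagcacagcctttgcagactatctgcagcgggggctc

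The promoters of 2 members that fell, *Kif3b* (chr2:153291166-153291465, plus strand) and *Wdr19* (chr5:65199446-65199745, plus strand), are also shown. Neither holds the paired motif, which was absent from 24 of the 27 member promoters. Any link between the motif and the direction of change was not tested. Capitals mark the single arm, present once in the *Kif3b* window and absent from that of *Wdr19*. The third member that fell, *Ift122*, had no entry in the promoter table.
Kif3b: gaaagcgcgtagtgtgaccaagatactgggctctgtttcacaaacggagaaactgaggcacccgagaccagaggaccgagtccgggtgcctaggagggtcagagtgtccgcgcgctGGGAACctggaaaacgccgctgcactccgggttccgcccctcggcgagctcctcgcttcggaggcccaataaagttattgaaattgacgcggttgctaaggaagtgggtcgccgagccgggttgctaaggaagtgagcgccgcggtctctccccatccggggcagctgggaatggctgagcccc
Wdr19: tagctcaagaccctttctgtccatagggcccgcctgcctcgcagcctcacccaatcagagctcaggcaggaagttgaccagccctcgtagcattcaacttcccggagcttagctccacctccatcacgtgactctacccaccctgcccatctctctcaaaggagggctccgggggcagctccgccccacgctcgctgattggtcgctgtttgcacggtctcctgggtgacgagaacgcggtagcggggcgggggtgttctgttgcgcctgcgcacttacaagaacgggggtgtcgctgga

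Loss of *Bbs8* was accompanied by a rise of 1 train gene and by modest falls of a few others. *Ift57* rose 2.85-fold. *Ift122*, *Wdr19* and *Kif3b* fell to between 0.588 and 0.786 of their WT level. The other 27 tested members did not pass the threshold of 0.05 on the adjusted p. Over all 12889 genes tested, 877 were lower (6.80%) and 704 higher (5.46%) in KO, against which the members' 3 lower and 1 higher of 31 are to be read. At an unadjusted p under 0.05, 5 members were lower and 2 higher, beside 12.1% lower and 11.3% higher of all genes. With scaling by library size alone the split was 1 lower and 2 higher among members and 654 lower and 1008 higher among all genes.

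Most fold changes were small and below 0. Of the 31 members tested, 22 had a fold change below 0 on the log2 scale and 9 above it, with a median of -0.19, whereas the median over all genes tested was 0.02. KO and WT libraries did not overlap for 4 members below WT (*Ift52*, *Ift122*, *Wdr19* and *Kif3b*), a state found in 8.65% of all genes, and for 1 member above WT (*Ift57*), a state found in 7.42% of all genes. The median fold change was -0.20 for IFT-B1, -0.17 for IFT-B2, -0.29 for IFT-A, -0.28 for kinesin-II and -0.19 for dynein-II.

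**Figure D1:**
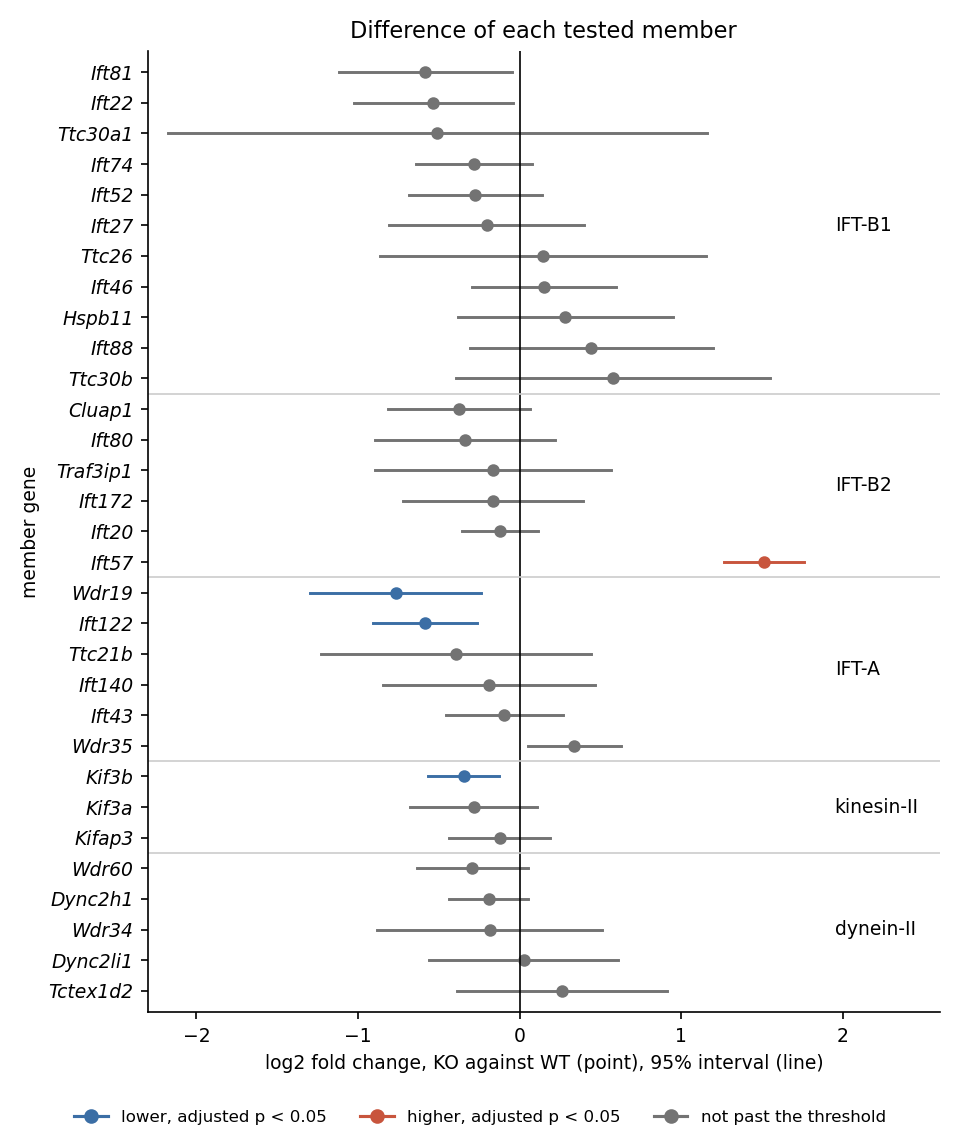
Log2 fold change of KO against WT for the 31 tested members (points) with 95% intervals (lines), grouped by complex; blue marks lower and red higher at an adjusted p under 0.05, and grey marks members that did not pass. *Ift57* stands alone at 1.51, and the remaining points lie between -0.77 and 0.58.

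The members differed widely in level. Mean WT levels of the tested members ranged from 3.73 CPM for *Ttc30a1* to 202 CPM for *Kif3b*, with a median of 29.9 CPM. Only *Kif3b*, *Ift20* (146 CPM) and *Dync2h1* (125 CPM) exceeded 100 CPM in WT, and 4 members were under 10 CPM. These levels are CPM of 3′ tags and were not divided by length, since a QuantSeq read marks a transcript end. Within a genotype the SD between libraries, as a percentage of the mean, had a median of 19.8% in WT and 23.0% in KO over the tested members. It ran from 3.54% for *Ift52* to 95.7% for *Ttc30a1* in WT, so the scarce members carried the least information.

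**Figure D2:**
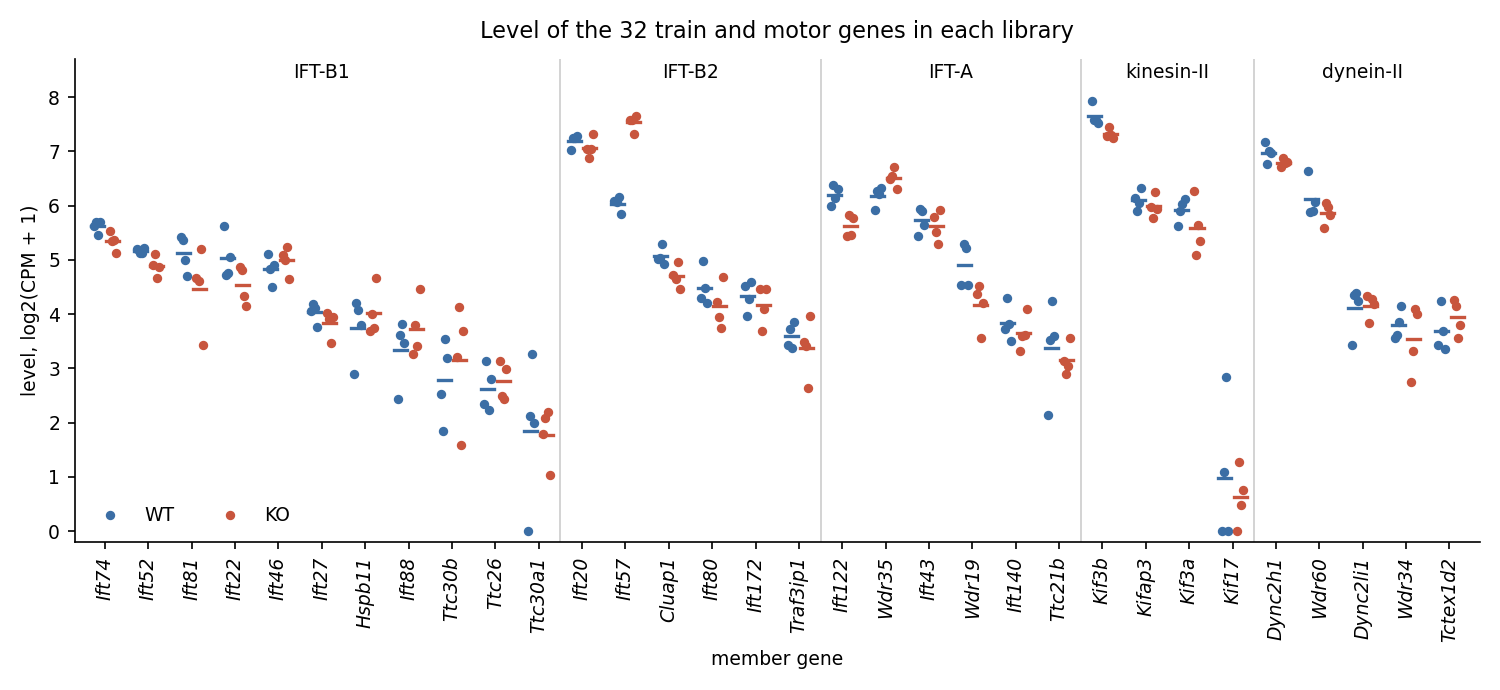
Level of each of the 32 members in each library, as log2(CPM + 1), with WT libraries in blue and KO libraries in red, a short bar at the mean of these log values, and members ordered by complex and WT level. The 4 KO points of *Ift57* lie clear above its 4 WT points, while for most other members the points of both genotypes interleave.

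*Ift57* encodes a coiled-coil subunit of the IFT-B2 subcomplex. It had 197, 178, 172 and 151 counts in WT and 464, 530, 399 and 571 counts in KO. These are 66.7, 66.4, 70.3 and 56.1 CPM in WT and 190, 190, 160 and 199 CPM in KO. Every KO library held more than 2 times the level of any WT library. The means were 64.9 ± 6.11 and 185 ± 17.4 CPM, and the log2 fold change was 1.51 (SE 0.12, 95% interval 1.26 to 1.76, adjusted p = 2.78e-12). The interval of *Ift57* lay wholly above those of 29 of the 30 other tested members, the exception being the scarce *Ttc30b*. By mean CPM *Ift57* was the 8th most abundant of the 32 members in WT and the most abundant in KO, and its share of the summed member CPM went from between 4.21% and 5.17% in WT to between 12.6% and 14.99% in KO. Over all genes tested it had rank 65 by p-value and rank 280 by the size of its rise. It kept its call in 17 of 17 alternative settings, with log2 fold changes of 1.44 or more.

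No gene beside *Ift57* passed the threshold. *Ift57* lies at chr16:49699233-49765126 on the plus strand of GRCm38 and has 3 coding transcripts with 3 different ends, which the deposited counts pool. The exons of *Gm15518*, an antisense RNA on the other strand, overlap its exons, and *Gm15518* had 0 counts in every library. *Cd47*, which starts 35407 bases downstream on the same strand, was at 63.5 CPM in WT and 85.3 CPM in KO, a log2 difference of 0.43 (adjusted p = 0.0547). Farther out, *Dzip3* (0.28, adjusted p = 0.413), the scarce *Cip2a* (-0.56, adjusted p = 0.816) and *Bbx* (-0.20, adjusted p = 0.455) did not pass either. The difference between *Ift57* and *Cd47* was not itself tested.

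The other 5 members of IFT-B2 all had fold changes below 0, between -0.38 and -0.12, and none passed. *Ift20*, which also serves at the Golgi, was the most abundant of them at 146 ± 11.7 CPM in WT and 134 ± 17.9 CPM in KO (log2 fold change -0.12, 95% interval -0.36 to 0.11). *Cluap1*, whose product is also called IFT38, gave -0.38 (95% interval -0.81 to 0.06) from 32.6 ± 3.78 to 25.1 ± 3.76 CPM. *Ift80* gave -0.34, *Traf3ip1*, which encodes the microtubule-binding subunit IFT54, gave -0.17, and *Ift172*, the largest train subunit, gave -0.16. Summed over its 6 members, IFT-B2 stood at 277 to 309 CPM in WT and 354 to 440 CPM in KO, a rise carried by *Ift57*.

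The IFT-B1 core had no member past the threshold among 11. Its fold changes ran from -0.58 to 0.58, with 6 below 0 and 5 above. *Ift74* and *Ift81* encode the subunits that together bind tubulin. *Ift81* had 124, 108, 76 and 67 counts in WT and 59, 65, 89 and 28 in KO, which gave -0.58 (95% interval -1.12 to -0.05, adjusted p = 0.164). Its KO replicate 3 lay among the WT libraries, and without that library the adjusted p was 0.0436. *Ift74* gave -0.28 from 48.2 ± 3.73 to 39.8 ± 4.62 CPM (95% interval -0.64 to 0.08). *Ift22*, which encodes a small GTPase-like subunit, had 142, 68, 64 and 87 counts in WT and 69, 76, 48 and 48 in KO, with a log2 fold change of -0.53 and an adjusted p of 0.166. Its highest value was that of WT replicate 1.

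*Ift52*, a scaffold of the core, was the steadiest member in WT, at 35.6, 33.9, 33.9 and 36.4 CPM, and stood at 29.1, 33.7, 24.4 and 28.3 CPM in KO. Every KO library lay below every WT library, yet the gap was narrow at the nearest pair and the fold change of -0.27 did not pass (95% interval -0.69 to 0.14, adjusted p = 0.462). *Ift46* (0.15), *Hspb11*, whose product is IFT25 (0.28), and its partner *Ift27*, a Rab-like GTPase linked to BBSome exit (-0.20), all had intervals that include 0. *Ift88*, whose mutation gives a classic mouse model of defective cilia, was at 9.68 ± 3.73 CPM in WT and 13.0 ± 5.60 CPM in KO (0.44, 95% interval -0.31 to 1.19). *Ttc26*, *Ttc30a1* and *Ttc30b*, the genes of IFT56 and IFT70, had at most 46 counts in any library. *Ttc30a1* and *Ttc30b* are near copies of each other, and their relative *Ttc30a2* had 0 counts in every library, so their unique counts are uncertain.

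Both members of IFT-A that fell belong to its core. *Ift122* had 186, 220, 170 and 209 counts in WT and 103, 155, 107 and 154 in KO. Its level went from 63.0, 82.1, 69.5 and 77.7 CPM to 42.3, 55.5, 42.8 and 53.8 CPM, with no overlap. Means were 73.1 ± 8.50 and 48.6 ± 7.03 CPM, and the log2 fold change was -0.58 (SE 0.16, 95% interval -0.91 to -0.26, adjusted p = 0.0102). The call held in 15 of 17 alternatives and was lost at a threshold of 0.01 and without WT replicate 2 (adjusted p = 0.0524).

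*Wdr19*, which encodes IFT144, was scarcer and less certain. Counts were 66, 103, 89 and 60 in WT and 48, 61, 27 and 50 in KO. Levels were 22.3, 38.4, 36.4 and 22.3 CPM in WT and 19.7, 21.8, 10.8 and 17.5 CPM in KO, so that the lowest WT and the highest KO libraries nearly touched. The log2 fold change was -0.77 (SE 0.26, 95% interval -1.30 to -0.24, adjusted p = 0.0476), the largest fall among the members. The call held in 8 of 17 alternatives, and it was lost without WT replicate 2 or 3 or KO replicate 1, 3 or 4 (adjusted p between 0.0540 and 0.201). It was also lost with DESeq2 (adjusted p = 0.0565), with library size scaling (0.0879), with a replicate block (0.0607) and at a threshold of 0.01. The gene *Rfc1* ends close by on the opposite strand and was at 86.1 CPM in WT and 72.8 CPM in KO (-0.24, adjusted p = 0.368).

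The remaining IFT-A members did not pass. *Wdr35*, whose product is IFT121, was the highest of them and the only IFT-A gene above 0: 59.6, 75.7, 73.2 and 78.8 CPM in WT against 88.7, 92.1, 104 and 78.3 CPM in KO, a log2 fold change of 0.34 (95% interval 0.05 to 0.62, adjusted p = 0.121). With library size scaling its adjusted p was 0.0383. *Ift140*, the third core gene, gave -0.19 (95% interval -0.85 to 0.47), *Ift43* gave -0.09 (95% interval -0.46 to 0.27) and *Ttc21b*, whose product is IFT139, gave -0.40 (95% interval -1.23 to 0.44). Of the 6 IFT-A genes, 5 thus had fold changes below 0 and 1 above. Their summed level was 203, 285, 269 and 249 CPM in WT and 214 to 236 CPM in KO. The genotypes overlapped through WT replicate 1 alone.

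Of the motors, 1 gene passed. *Kif3b*, a motor subunit of heterotrimeric kinesin-II and the most abundant member in WT, had 719, 510, 466 and 490 counts in WT and 379, 482, 390 and 429 in KO. This is 243, 190, 191 and 182 CPM against 156, 173, 156 and 150 CPM. WT replicate 1 lay far above the other WT libraries, but the genotypes did not overlap. The log2 fold change was -0.35 (SE 0.11, 95% interval -0.57 to -0.13, adjusted p = 0.0268). The call held in 11 of 17 alternatives. Without WT replicate 1 the log2 fold change was -0.24 (adjusted p = 0.130), without KO replicate 1, 3 or 4 the adjusted p lay between 0.0578 and 0.0877, and with library size scaling it was 0.114.

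*Kif3a*, the partner motor subunit, was at 48.4, 58.9, 64.6 and 68.4 CPM in WT and 75.9, 32.95, 49.2 and 39.8 CPM in KO. KO replicate 1 exceeded every WT library while the other KO libraries were mostly below them, and the fold change was -0.28 (95% interval -0.68 to 0.11, adjusted p = 0.412). Without KO replicate 1 it was -0.56 (adjusted p = 0.0468). The adaptor *Kifap3* changed little, from 68.2 ± 8.62 to 62.7 ± 9.01 CPM (-0.12, 95% interval -0.44 to 0.19). *Kif17*, which encodes the homodimeric accessory kinesin, had 0, 3, 15 and 0 counts in WT and 0, 4, 1 and 2 in KO and could not be compared. Its exons overlap those of *Sh2d5*. The summed level of the 4 kinesin genes did not overlap, at 309 to 361 CPM in WT and 251 to 293 CPM in KO. *Kif3b* made up most of it, at a mean of 202 of 332 CPM in WT and 159 of 271 CPM in KO.

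Dynein-II had no member past the threshold among 5. *Dync2h1*, the heavy chain that moves the complex, was at 108 to 143 CPM in WT and 104 to 116 CPM in KO (-0.19, 95% interval -0.43 to 0.05, adjusted p = 0.360). The intermediate chain genes *Wdr60* and *Wdr34* gave -0.29 (95% interval -0.64 to 0.05) and -0.19 (95% interval -0.89 to 0.51). The light intermediate chain *Dync2li1* gave 0.02 (95% interval -0.56 to 0.61) and the light chain *Tctex1d2* 0.26 (95% interval -0.39 to 0.91). Over all complexes, the intervals of 20 of the 27 members that did not pass lay within a 2-fold change either way, and those of 4 lay within 1.5-fold.

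**Figure D3:**
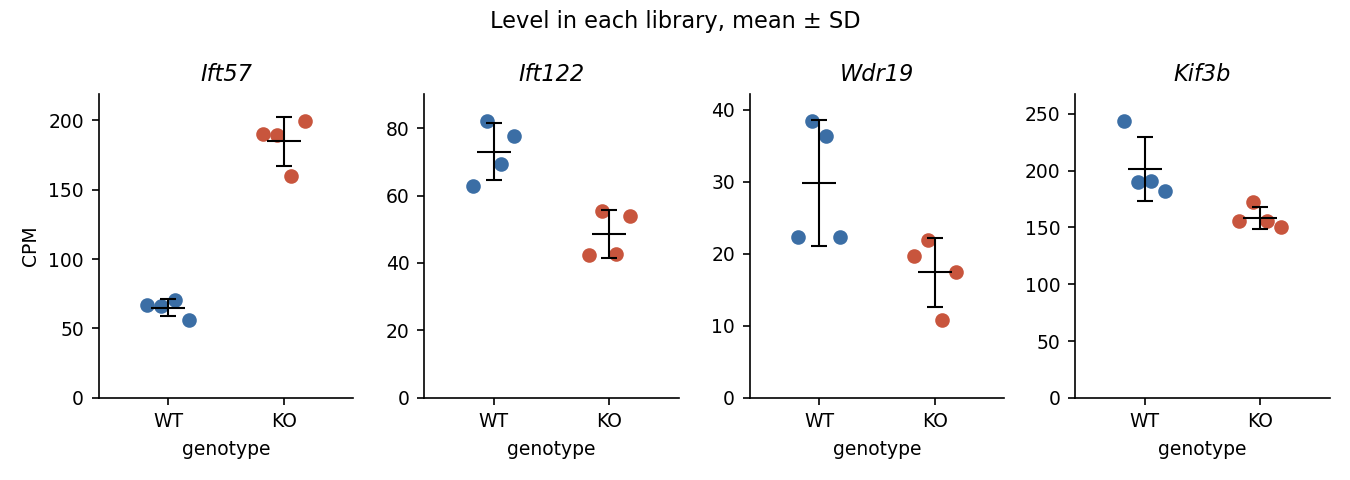
Level in CPM of the 4 members past the threshold in each library, WT in blue and KO in red, with the mean and SD in black; every axis starts at 0. The genotypes do not overlap in any panel, by a wide margin for *Ift57* (highest WT 70.3, lowest KO 160) and by a narrow one for *Wdr19* (lowest WT 22.3, highest KO 21.8).

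Summed over the members without *Ift57*, the level was even across the libraries of a genotype. *Ift57* was left out because its rise had been seen, and that choice by itself lowers the KO sum relative to the WT sum. It stood at 1289, 1287, 1289 and 1277 CPM in WT and at 1127, 1110, 1105 and 1131 CPM in KO, a fall of 13.0% with no overlap. With *Ift57* included the sums were 1333 to 1360 CPM in WT and 1264 to 1331 CPM in KO, a fall of 3.5%. The rise of 1 gene thus offset most of the fall of the others. With library size scaling the sum without *Ift57* was 1246 ± 18.3 in WT and 1153 ± 20.5 in KO, and the sum of all 32 was higher in KO instead, at 1309 ± 23.4 in WT and 1344 ± 35.2 in KO. In the same libraries the summed rod markers fell by 58.9%. How much of the members' RNA came from rods was not tested.

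**Figure D4:**
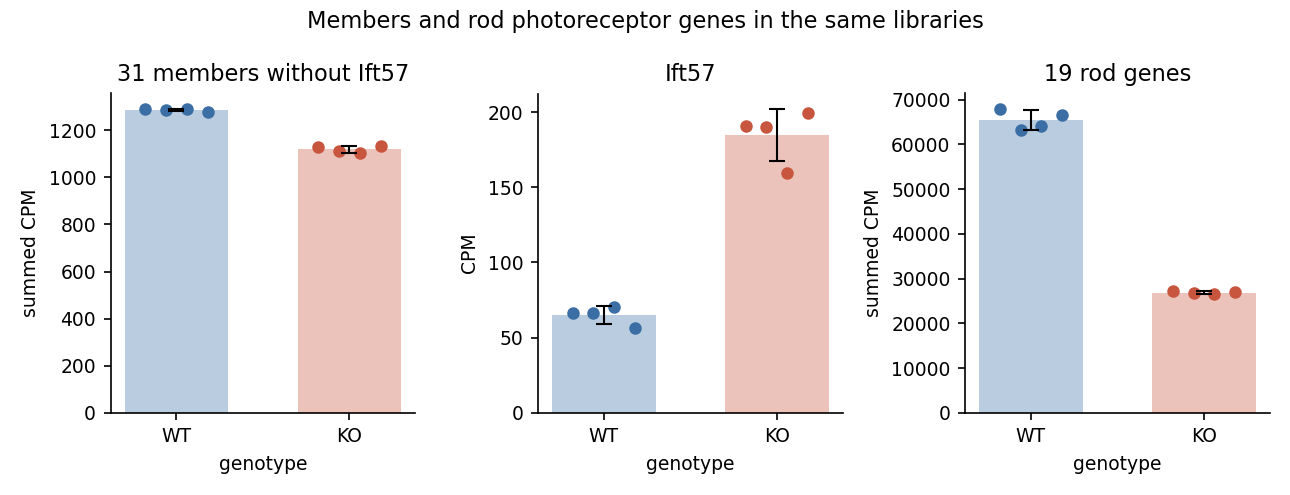
Summed CPM of the 31 members without *Ift57* (left), CPM of *Ift57* (middle) and summed CPM of 19 rod photoreceptor genes (right), with bars at the mean, error bars for the SD and points for the libraries. The sum without *Ift57*, which was left out after its rise was seen, fell by 13.0%. The rod sum fell by 58.9%, while *Ift57* rose.

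Genes that work with the trains were compared from 5 lists drawn up by name. Of the BBSome genes, 2 of 8 were lower, the targeted *Ttc8* and *Bbs4*, beside 6.80% of all genes. The knockout itself sets the fall of *Ttc8*, which is included in the median fold change of -0.41. *Bbs4*, a subunit also found at centriolar satellites, had 511, 399, 376 and 405 counts in WT and 269, 331, 277 and 298 in KO. It went from 157 ± 11.2 to 111 ± 5.91 CPM without overlap, a log2 fold change of -0.50 (SE 0.11, adjusted p = 0.00169). *Bbs1*, *Bbs2*, *Bbs5*, *Bbs7*, *Bbs9* and *Bbip1* lay between -0.60 and 0.27 and did not pass.

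Of the train adaptors and kinases, 3 of 11 tested were lower and none higher, beside 6.80% and 5.46% of all genes. The median was -0.50. *Arl3*, a GTPase that releases lipidated cargo inside the cilium, went from 519 ± 25.5 to 284 ± 22.7 CPM (-0.87, SE 0.09, adjusted p = 3.58e-10). *Arl13b*, the GTPase of the ciliary membrane that activates it, went from 104 ± 20.7 to 60.3 ± 9.14 CPM (-0.78, SE 0.15, adjusted p = 2.40e-04). *Mak*, a kinase of the photoreceptor cilium, went from 158 ± 17.7 to 96.3 ± 8.62 CPM (-0.71, SE 0.12, adjusted p = 2.70e-05). In all 3 the genotypes did not overlap, and each kept its call in 17 of 17 alternatives. The rod markers fell in the same libraries, and their part in these falls was not tested.

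The distal appendage genes, which dock the trains at the base of the cilium, had a median of -0.48. Of these, 1 of 7 was lower, beside 6.80% of all genes. This was *Sclt1*, at 89, 83, 85 and 69 counts in WT and 36, 43, 71 and 32 in KO (-0.80, SE 0.26, adjusted p = 0.0353). KO replicate 3 lay within the WT range, and the call held in 10 of 17 alternatives, being lost without WT replicate 2 or 3 or KO replicate 1, 2 or 4 (adjusted p up to 0.138), with library size scaling (0.0687) and at a threshold of 0.01. The dynein light chains that dynein-II shares with cytoplasmic dynein gave 0 calls among 7 tested, with 1 lower and 0 higher at an unadjusted p under 0.05 (12.1% and 11.3% of all genes), 0 calls with library size scaling and a median of -0.05.

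Among the transcription factors that govern ciliary genes, 1 of 6 tested was called, and it was higher, beside 5.46% of all genes. This was *Rfx2*, an RFX factor of ciliated cells. It had 6, 0, 6 and 7 counts in WT and 23, 37, 15 and 41 in KO, that is 1.77 ± 1.21 against 10.8 ± 3.80 CPM, with no overlap. The log2 fold change was 2.58 (SE 0.57, 95% interval 1.42 to 3.74, adjusted p = 0.00132), from a WT level near the floor, and the call held in 16 of 16 alternatives that kept the gene. *Rfx7* (0.59, adjusted p = 0.116), *Rfx3* (0.60, adjusted p = 0.193) and *Rfx1* (-0.61, adjusted p = 0.138) did not pass. *Foxj1*, the master factor of motile cilia, was at 4.23 ± 2.79 CPM in WT and 4.22 ± 0.77 CPM in KO. The 2 other members whose promoters matched the paired motif as searched did not pass the threshold. *Ift22* gave -0.53 (95% interval -1.03 to -0.04), and the scarce *Ttc26* gave 0.15 (95% interval -0.86 to 1.15). Whether *Rfx2* acts on *Ift57* was not tested.

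**Figure D5:**
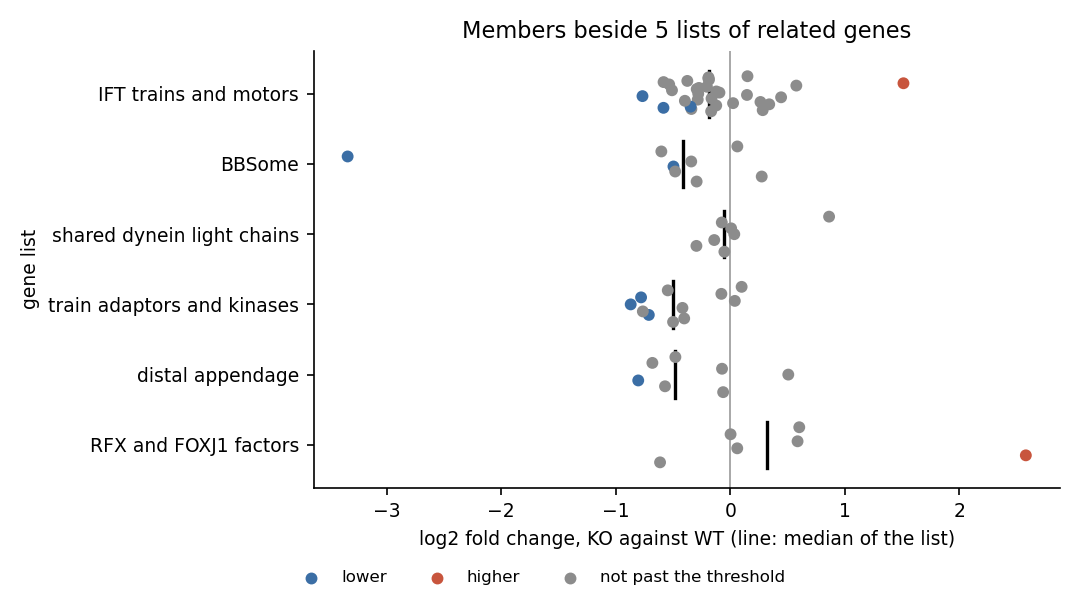
Log2 fold change of KO against WT for the tested members and for the tested genes of 5 related lists, 1 point per gene, with a vertical bar at the median of each list; blue marks lower and red higher at an adjusted p under 0.05. The medians were -0.19 for the members, -0.41 for the BBSome (the targeted *Ttc8* included) and -0.05 for the shared dynein light chains. They were -0.50 for the adaptors and kinases, -0.48 for the distal appendage and 0.32 for the RFX and FOXJ1 factors.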

How the data were processed

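The authors trimmed the reads with BBDuk, aligned them with STAR to mm10 with Ensembl gene models, and used htseq-count to assign unique alignments to genes. The strand setting is not given in the sources used here. The authors deposited these values as raw counts per gene, with no normalization or filter. Rows that name no gene were left out. Reads that did not map uniquely made up 32.8% to 34.5% of a library, reads on no feature 17.0% to 20.6% and ambiguous reads 0.244% to 0.296%, so members with near copies or overlapping genes may be undercounted. Symbols and coordinates came from the GENCODE annotation of GRCm38, which named 30934 of the identifiers, and promoters from RefSeq (GRCm38.p6).

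Groups were taken from the labels. Genotypes were compared by edgeR 4.0.16 under R 4.3.3 (TMM scaling, factors 0.955 to 1.05, quasi-likelihood F test, two-sided). A gene was tested at 1 CPM or more in at least 4 of 8 libraries, and p-values were adjusted by Benjamini-Hochberg over all 12889 genes at a threshold of 0.05. This filter differs from that of the study, which also used the share of multi-mapped reads. CPM are counts over all gene counts times the TMM factor. Intervals are at 95%. The common biological coefficient of variation was 0.213. Sums over marker lists were compared by an exact permutation test. The code was checked on simulated counts.

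The members and lists were chosen with earlier results of these data known. All 32 members are reported, with values per library for those past the threshold, together with every gene past it in 5 related lists, the gene of highest mean CPM in each of 11 marker lists and *Ttc8*. Results for 1 gene that this rule covers are not reported here. *Best1*, *Cd47*, *Cip2a*, *Dzip3*, *Bbx*, *Rfc1*, *Sh2d5* and *Gm15518*, and members and related genes given in full without passing, were chosen after their values were seen. Alternatives were DESeq2 1.42.0, edgeR's likelihood ratio test, 3 other scalings, 2 other filters, a replicate block, each library left out and a threshold of 0.01. Those for the related genes and the member sums were added after the data were seen.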

Additional observations from a re-analysis of the deposited data

Results flagged for a closer look

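In 2 of the 66 sets of 4 libraries tested, 1 library lay apart from the other 3 by Dixon's criterion, which chance meets in about 1 in 20 sets, and in 0 of 14 sums over complexes. Both were WT replicate 1. *Ift20* was at 129 CPM there and at 151 to 154 CPM in the other WT libraries. *Kif3b* was at 243 CPM there and at 182 to 191 CPM in the others, and its fall did not pass without that library (log2 fold change -0.24, adjusted p = 0.130).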

How the results depend on the processing

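The call of *Ift57* held in 17 of 17 settings, the fall of *Ttc8* kept its call and direction, and the median fold change of the members stayed between -0.24 and -0.10. The number of members lower was 3 in the reported fit, 1 with library size scaling, 0 at an adjusted p under 0.01, and 1 to 3 with a library left out (1 without WT replicate 2 and 1 without KO replicate 4). The number higher was 1, and 2 with library size scaling, where *Wdr35* joined *Ift57*. That scaling shifted log2 fold changes by a median of 0.09. With a library left out, small differences that had not passed changed sign: *Dync2li1* from -0.17 to 0.13, *Ttc30a1* from -0.93 to 0.29, *Ttc26* from -0.00529 to 0.38, *Wdr34* from -0.38 to 0.0287, *Traf3ip1* from -0.42 to 0.0416, *Ift43* from -0.21 to 0.00831 and *Hspb11* from -0.00300 to 0.45. With library size scaling the KO to WT ratio of the member sum was 1.03 against 0.965, and that of the motile cilia markers 1.00 against 0.940. The microglia ratio (0.900 against 0.845) and the 1 distal appendage call were lost. The causes were not tested.

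No sign of pairing by replicate number was seen: same-numbered WT and KO libraries correlated between -0.058 and 0.003 in their deviations. This check cannot exclude that the numbers follow litters or batches. With a replicate block, 2 members were lower and 1 higher, and *Wdr19* was at an adjusted p of 0.0607.

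The 95% intervals of 7 of the 27 members that did not pass reached beyond a 2-fold change, so a change of that size was not excluded for them. Nothing in the labels says that litters were balanced, and p-values measure the spread between these 8 libraries.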
